A study of Anolis sagrei with 15 samples.

Results

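The central and the temporal region of the posterior globe of the eye were compared in embryos of the brown anole, *Anolis sagrei*. All libraries labelled as posterior globe from the central quadrant were set against all those from the temporal quadrant, which gave 10 of the 15 libraries of the series, 5 from each region, and every gene model of the count table was used. An anole eye has a fovea, a pit in the retina where cells are packed densely for sharp vision, in the centre of the retina and another on its temporal side. The central pit is deep and serves the view of each eye alone, while the temporal pit is shallower and serves the field that both eyes share. A fovea of this kind holds cones and few or no rods, each cone is connected to its own bipolar and ganglion cell, and the ganglion cell axons leave the eye at the optic nerve head. In the chick, the forming high-acuity area is a place where retinoic acid is broken down and FGF8 is expressed. The labels name the quadrants and not the foveae, and whether a forming pit lay within the dissected tissue is not stated by them or by the methods.

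Both groups were embryos of Sanger stage 16.5 laid by wild-caught parents, the labels name no genotype or treatment for either, and they differ only in the quadrant. The tissue of each region was pooled from 3 embryos of mixed sex, so that a library is an average over animals, and the third region, nasal, with 5 libraries of the same stage, is given beside the comparison where it places a value. The labels do not say whether libraries with the same replicate number came from the same embryos, and p-values measure only the spread between these libraries. The values are counted reads per gene model, between 15177438 and 27035312 per library and 202122086 over the 10 libraries, and levels are given in CPM, counts per 1000000 counted reads of a library after scaling. Posterior globe is a mixed tissue, and in such samples fewer cells of a type and less RNA per cell cannot be told apart.

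The tissue held the genes of embryonic retina in both regions. RAX, a transcription factor of the eye field, had a median of 44.6 CPM in central and 47.9 CPM in temporal libraries, and SIX6, another, had 27.6 CPM in central and 29.2 CPM in temporal libraries in the larger of its models. Pigment epithelium came with the retina, since its isomerase RPE65 had a median of 414 CPM in central and 322 CPM in temporal libraries and the pigment granule protein PMEL had 521 CPM and 790.1 CPM. Connective tissue and blood were also present. The connective tissue collagen COL1A1 had medians of 292 CPM in central and 384 CPM in temporal libraries, and a model of the globin HBA1 had 190.8 and 239.6 CPM. Markers of scleral cartilage were split. The cartilage collagen COL2A1 had medians of 74.3 and 76.3 CPM, but MATN1 had 0.1855 CPM in central and 0.1811 CPM in temporal libraries. By contrast, the lens crystallins CRYAA and CRYBB1 and the muscle genes MYLPF and CKM had medians under 3 CPM in both regions.

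Central replicate 4 stood apart from the other libraries. It listed 14994 gene models with at least 1 read, against 17491 to 18617 in the other 14 libraries, and it lay at 160 on the first principal component (38.5% of the variance), where the other 14 lay between -29.2 and 7.78. The summed level of a list of choroid and mesenchyme genes was 3637 CPM in this library, against 478 to 1283 CPM in the other central libraries and 552 to 1446 CPM in temporal libraries. The sum of the melanin pigment genes was 2735 CPM there, against 1466 to 1847 CPM in the other central libraries and 1815 to 2259.9 CPM in temporal libraries. Gene calls that were lost without this library are therefore given with and without it, as are some further results. Other values include it.

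**Figure D1:**
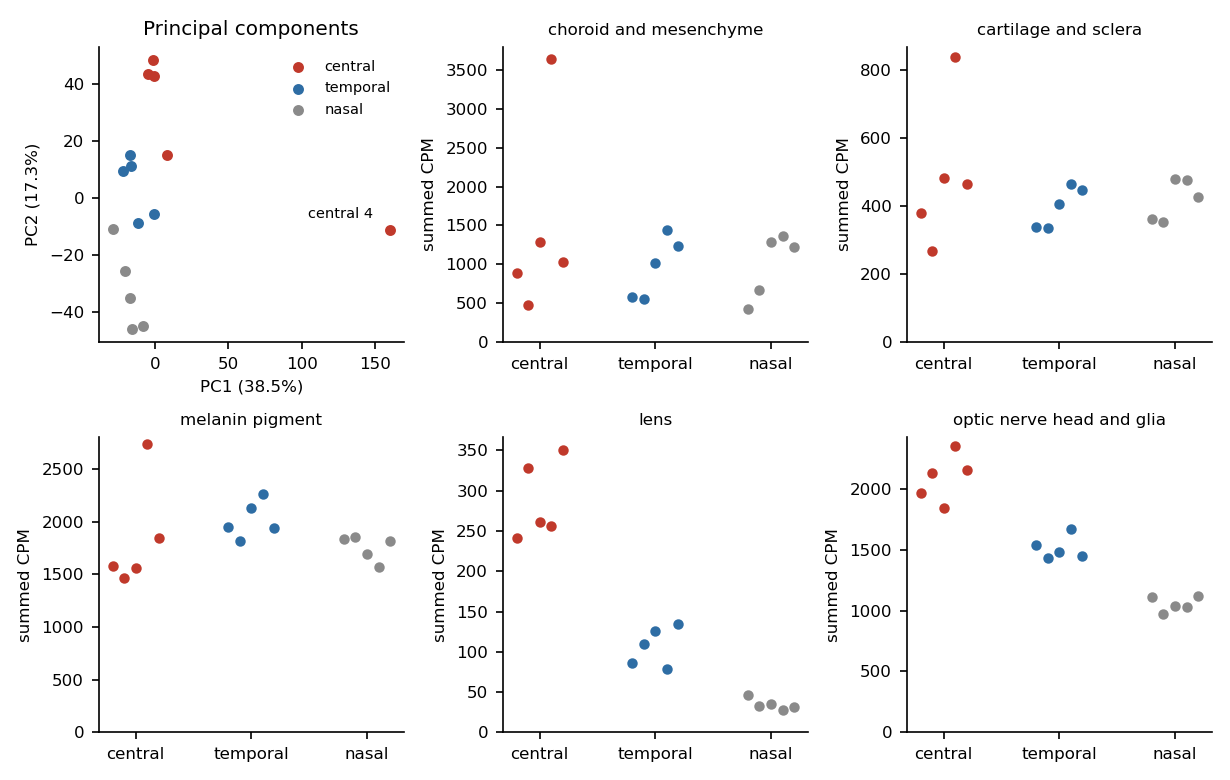
Position of the 15 libraries on the first principal components of log-scaled levels (percent of the variance on each axis), and the summed CPM of the genes of 5 tissue lists in each library, with replicates 1 to 5 from left to right in each region. Central replicate 4 lies at 160 on the first component and at 3637 CPM for choroid and mesenchyme. The sums of the lens and optic nerve head lists are higher in all 5 central libraries than in any temporal library, though single members of both lists go either way.

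Libraries with the same replicate number deviated together in the 3 regions, and the replicate number was kept as a block in the test. By edgeR's quasi-likelihood test, 2022 of the 15910 gene models tested differed between the regions at an adjusted p under 0.05, which is 12.7%. Of these, 1009 were higher in central (6.34% of those tested) and 1013 were lower (6.37%), and 174 and 207 of them differed more than 2-fold (1.09% and 1.3%). All 5 central libraries lay above all 5 temporal libraries for 561 gene models (3.53%) and below them for 599 (3.76%), together 7.29%. Most differences were small, with a median absolute log2 fold change of 0.52 among the gene models that differed, and the median over all gene models tested was -0.02. Leaving out temporal replicate 2 or 5 left 671 or 674 gene models lower in central, the libraries for which a count moved by more than 1.5 times. Without central replicate 4, 2272 of 16063 gene models differed (14.1%), 7.05% higher and 7.1% lower in central. Of these, 1793 were called with that library too, each in the same direction. Without the replicate block 1078 gene models (6.78%) were called.

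**Figure D2:**
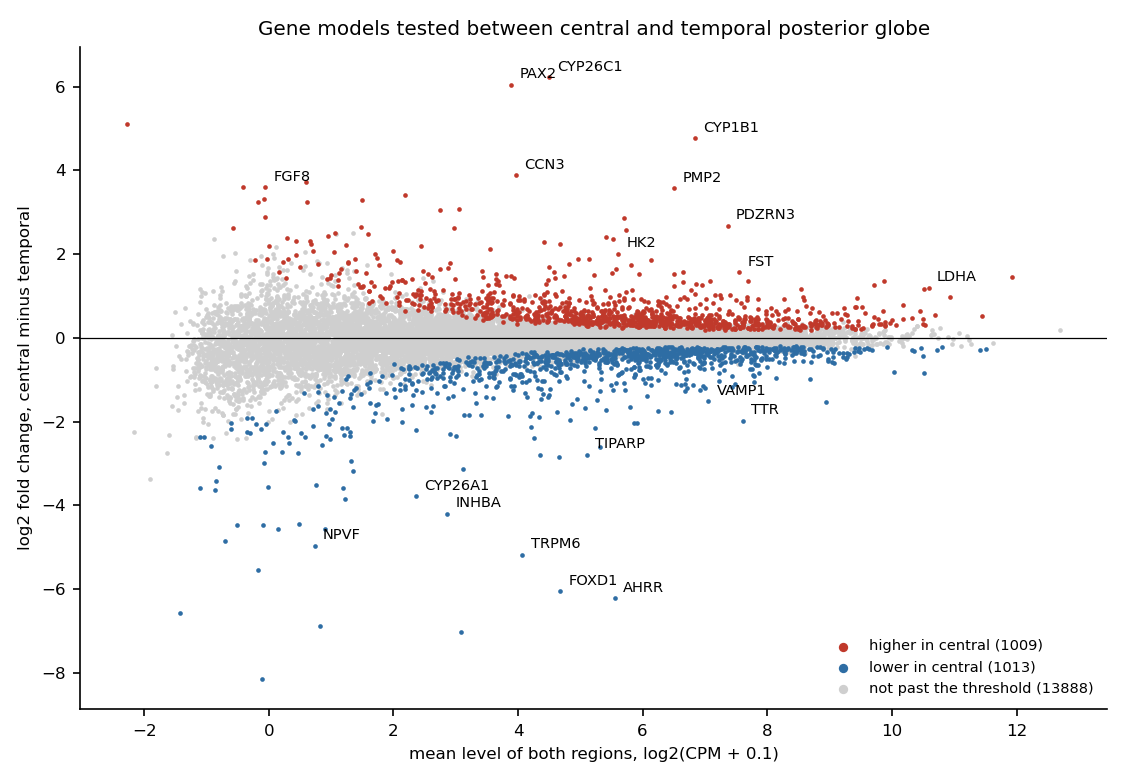
Log2 fold change of central minus temporal against the mean level of both regions on the log2(CPM + 0.1) scale for the 15910 gene models tested; red points are the 1009 higher in central, blue points the 1013 lower, grey points did not pass the threshold. CYP26C1 and PAX2 reach 6.23 and 6.05 at the top, and AHRR and FOXD1 lie at -6.22 and -6.05.

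The largest single difference among genes above 5 CPM that were higher in central was CYP26C1 (ANOSAT007723), a cytochrome P450 that breaks down retinoic acid. It had 51.2, 59.9, 40.6, 40.98 and 28.4 CPM in central replicates 1 to 5, against 0.3296, 0.677, 0.438, 0.589 and 0.744 CPM in temporal replicates 1 to 5. Every central library thus had at least 28.4 CPM and every temporal library less than 1 CPM, a 74.9-fold difference (log2 fold change 6.23, SE 0.23, edgeR adjusted p = 1.65e-10). CYP26A1 (ANOSAT007724), an enzyme with the same substrate, ran in the opposite direction. Its level was 0.724, 0.891, 0.944, 0 and 1.03 CPM in the central libraries and 6.06, 10.6, 11.7, 9.37 and 9.18 CPM in the temporal libraries, so that the groups did not overlap (log2 fold change -3.78, SE 0.45, edgeR adjusted p = 3.04e-05). Nasal libraries were low for both, with means of 0.133 CPM for CYP26C1 and 0.957 CPM for CYP26A1, and in the RefSeq annotation of another assembly (rAnoSag1) these 2 genes are neighbours. The third enzyme of this family, CYP26B1, averaged 3.98 ± 1.57 CPM in central and 5.71 ± 1.53 CPM in temporal libraries (SD, n = 5 each, as for all means given with ±), a difference that did not pass the test (edgeR adjusted p = 0.114).

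Enzymes on the side of synthesis were divided as well. CYP1B1 (ANOSAT002696), a P450 that can oxidise retinol and that is also induced by the aryl hydrocarbon receptor, had 195, 158, 222, 294 and 233 CPM in central libraries, against 7.98, 5.46, 12.9, 10.2 and 5.37 CPM in temporal libraries. All central libraries were above all temporal libraries, by 27.3-fold (log2 fold change 4.77, SE 0.23, edgeR adjusted p = 2.84e-09), and nasal libraries lay between at 21.2 to 45.5 CPM. ALDH1A1, which makes retinoic acid from retinal, was lower in central at 9.52, 12.02, 8.83, 11.4 and 10.99 CPM, against 76.9, 39.4, 26.3, 27.5 and 21.7 CPM in temporal libraries (log2 fold change -1.78, SE 0.29, edgeR adjusted p = 0.000651). Temporal replicate 1 was the highest of these, and the regions did not overlap. RDH10, which makes retinal from retinol, averaged 128 ± 31.02 CPM in central and 160.5 ± 32.2 CPM in temporal libraries in the larger of its models (log2 fold change -0.33, edgeR adjusted p = 0.0346), where libraries overlapped and the adjusted p was 0.304 without the replicate block. That call was also lost without central replicate 1, 3 or 5 or temporal replicate 1, 2, 3 or 4 (-0.33 to -0.27). The smaller model of RDH10 (ANOSAT009576) averaged 7.57 ± 1.38 CPM in central and 13.02 ± 2.09 CPM in temporal libraries (-0.79), without overlap. The retinoic acid receptor RARB, itself a known target of retinoic acid, averaged 13.2 ± 2.996 CPM in central and 21.99 ± 0.943 CPM in temporal libraries (-0.76, edgeR adjusted p = 0.00119).

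Several genes for the carriage and uptake of retinoids were higher in central. CRABP1, which binds retinoic acid in the cytoplasm, had 269, 257, 176, 119.9 and 156 CPM in central libraries and 75.9, 103, 78.4, 52.7 and 61.6 CPM in temporal libraries (log2 fold change 1.36, SE 0.11, edgeR adjusted p = 7.28e-07). The related CRABP2 averaged 176 ± 77.7 CPM in central and 70.3 ± 25.02 CPM in temporal libraries (1.27), and libraries of the 2 regions overlapped although central was higher in each of the 5 pairs with the same replicate number. RBP4, which carries retinol in the blood and in the eye, averaged 1683 ± 232 CPM in central and 1222 ± 122 CPM in temporal libraries (0.46). Its receptor STRA6 averaged 73.98 ± 25.7 CPM in central and 46.6 ± 9.81 CPM in temporal libraries in the larger of its models (0.64). That call was lost in 1 of 23 alternative fits. The smaller model of STRA6 (ANOSAT004740) did not pass, at 26.7 ± 8.18 CPM in central and 22.4 ± 7.35 CPM in temporal libraries (0.26, edgeR adjusted p = 0.240). Of the 22 tested gene models of the retinoic acid pathway, 6 were higher in central (27.3%), 6 were lower (27.3%) and 10 did not pass. Their median log2 change was 0.14, against -0.02 over all gene models.

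**Figure D3:**
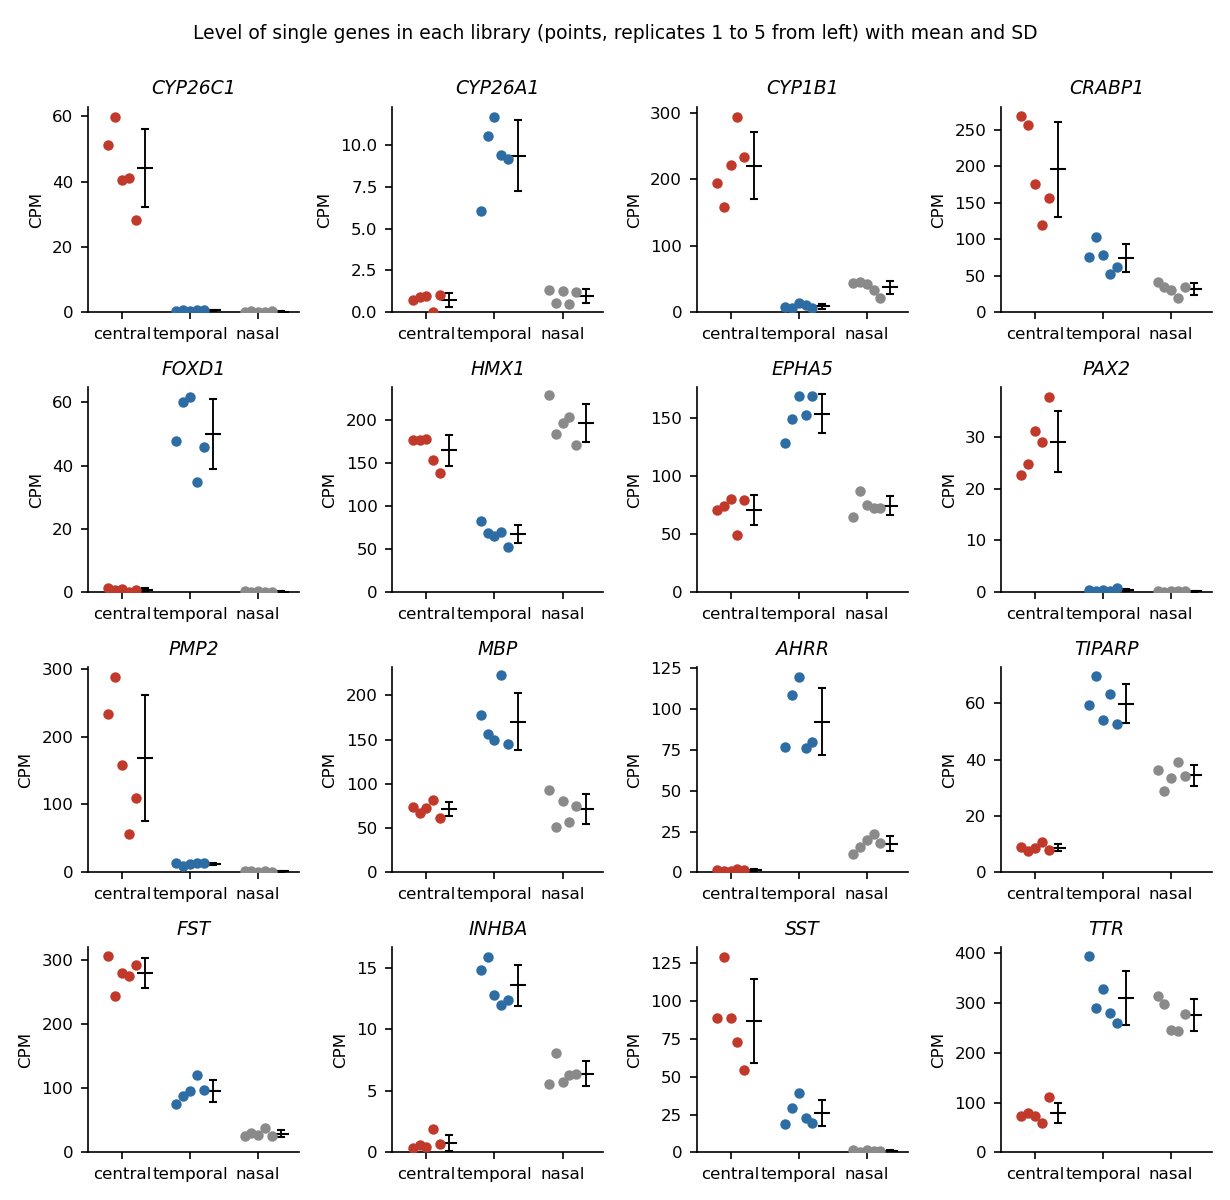
CPM of 16 genes in each central, temporal and nasal library, with replicates 1 to 5 as points from left to right and the mean with SD (n = 5) as a bar beside them. CYP26C1, CYP1B1, PAX2, PMP2 and FST are higher in all 5 central libraries than in any temporal library, and CYP26A1, FOXD1, EPHA5, MBP, AHRR, TIPARP, INHBA and TTR are lower in all 5.

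Some genes that mark position along the nasal to temporal axis of the vertebrate retina separated the regions. FOXD1, the transcription factor of the temporal retina, had 1.45, 0.779, 0.999, 0 and 0.635 CPM in central libraries, against 47.7, 60.1, 61.7, 34.7 and 45.8 CPM in temporal libraries, and at most 0.296 CPM in nasal ones. It was thus near 0 in every central library, 66.4-fold lower than in temporal (log2 fold change -6.05, SE 0.33, edgeR adjusted p = 8.80e-09). HMX1, a transcription factor of the nasal retina, had 176, 176, 178, 154 and 138 CPM in central libraries and 82.5, 68.2, 64.8, 70.2 and 52.6 CPM in temporal libraries, with no overlap (log2 fold change 1.29, SE 0.07, edgeR adjusted p = 1.39e-08). The central mean lay nearer to nasal libraries, at 170.2 to 229 CPM, than to temporal ones.

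Several Eph receptors, which guide temporal axons in the visual map, were lower in central than in temporal libraries. EPHA5 had 71.02, 74.3, 79.9, 49.1 and 79.4 CPM in central and 128, 149, 169, 152 and 169 CPM in temporal libraries, which did not overlap (log2 fold change -1.12, SE 0.10, edgeR adjusted p = 2.56e-06). EPHA3 averaged 39.7 ± 2.98 CPM in central and 76.6 ± 11.5 CPM in temporal libraries in the model ANOSAT008719 (-0.94, edgeR adjusted p = 1.86e-05), and 8.71 CPM in nasal libraries. A second model of EPHA3 (ANOSAT008720) and all 3 models of EPHA8 were also lower, with EPHA8 at 62, 7 and 12 reads in central against 301, 173 and 257 in temporal libraries. The log2 fold change of the EPHA8 model ANOSAT021197 was -4.46, and -5.07 without central replicate 3. Models that share a symbol may be parts of 1 gene that the gene annotation split, so their single values are uncertain. EPHA6 did not pass the test in either of its models. It averaged 18.4 ± 5.22 CPM in central and 24.3 ± 2.13 CPM in temporal libraries in the larger one (-0.44, edgeR adjusted p = 0.0816, past the threshold without central replicate 1 or temporal replicate 1, at -0.58 and -0.57), and 1.096 ± 0.861 CPM in central and 1.86 ± 0.949 CPM in temporal libraries in the smaller (-0.97, edgeR adjusted p = 0.334). EPHA7 was higher in central, at 43.3 ± 5.16 CPM in central and 36.01 ± 4.22 CPM in temporal libraries (log2 fold change 0.27, edgeR adjusted p = 0.0493), and its call was lost without any of 9 single libraries (0.22 to 0.30), all but central replicate 4. Of 27 tested gene models of Eph receptors and ephrins, 9 were lower in central (33.3%) and 1 was higher. Of 7 models on the list of temporal-side genes 4 were lower and 1 was higher. On the list of 7 nasal-side genes 2 were higher and 0 lower.

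ZIC2, a transcription factor of the peripheral retina and ciliary margin, was nearly absent from central libraries. It had 0.111, 0.2598, 0.333, 0 and 0 CPM in central libraries, against 2.703, 6.61, 3.001, 2.35 and 2.397 CPM in temporal libraries. These levels rest on 15 reads in central and 365 in temporal libraries, and the groups did not overlap (log2 fold change -4.56, SE 0.55, edgeR adjusted p = 3.87e-05). Nasal libraries averaged 3.498 CPM, close to the temporal mean of 3.41 ± 1.81 CPM. No other gene on the list of the ciliary margin and iris passed the test except ZIC1, so that 2 of 9 were lower and 0 higher (3 lower without central replicate 4). The summed level of the list was 138 to 191 CPM in central and 151 to 189 CPM in temporal libraries.

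Along the dorsal to ventral axis the picture was mixed. PAX2 (ANOSAT008035), a transcription factor of the ventral eye, the optic stalk and the optic nerve head, had 22.7, 24.7, 31.1, 29.1 and 37.7 CPM in central libraries, against 0.396, 0.319, 0.375, 0.272 and 0.827 CPM in temporal libraries. Each central library was at 22.7 CPM or more and each temporal one under 1 CPM (66.2-fold, log2 fold change 6.05, SE 0.24, edgeR adjusted p = 2.16e-10), and nasal libraries averaged 0.185 CPM. Another ventral gene, the receptor EPHB2, was lower in central in the largest of its 3 models, at 226 ± 22.3 CPM in central and 278 ± 25 CPM in temporal libraries (-0.30). Among dorsal genes, the signal BMP2 was higher in central at 23.9, 27.2, 28.1, 38.7 and 31.4 CPM, against 10.5, 15.2, 12.4, 17.7 and 14.1 CPM in temporal libraries (log2 fold change 1.10, SE 0.13, edgeR adjusted p = 2.22e-05). ALDH1A1 (above) and the ligand EFNB2, at 37.4 ± 5.49 CPM in central and 58.3 ± 8.61 CPM in temporal libraries (-0.64), were lower. Of 11 dorsal gene models 2 were higher and 3 lower, and of 12 ventral ones 1 was higher and 3 were lower (5 without central replicate 4).

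The optic nerve head and its glia gave differences in both directions. Beside PAX2, the fatty acid binding protein PMP2 of glial and Schwann cells was higher in central, at 233, 288, 158, 55.9 and 109.5 CPM, against 13.3, 9.56, 11.8, 13.6 and 13.3 CPM in temporal libraries. Its lowest central value, in replicate 4, was still above the highest temporal value (log2 fold change 3.58, SE 0.31, edgeR adjusted p = 1.32e-06), and nasal libraries averaged 1.26 CPM. GFAP, the intermediate filament of astrocytes, averaged 552 ± 49.9 CPM in central and 361 ± 33.7 CPM in temporal libraries (0.63). FABP7, the fatty acid binding protein of radial glia, averaged 916 ± 229 CPM in central and 467 ± 51.5 CPM in temporal libraries (0.95). The endothelin receptor EDNRB averaged 14.9 ± 9.05 CPM in central and 7.34 ± 2.75 CPM in temporal libraries in the model ANOSAT008202. Its log2 fold change was 0.95 with and 0.67 without central replicate 4, its highest library, and its call was lost without the replicate block (edgeR adjusted p = 0.0691). The larger model of EDNRB did not pass the test (20.6 ± 9.83 CPM in central and 12.8 ± 5.16 CPM in temporal libraries, 0.66, edgeR adjusted p = 0.177). The summed level of this list was 1839 to 2351 CPM in central libraries and 1434 to 1672 CPM in temporal libraries, without overlap. FABP7, the radial glia gene above, made up a large part of this sum. By number, more models of the list were lower in central (9 of 24) than higher (5).

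Against the direction of PMP2, the myelin genes MBP and CNP were lower in central, though no list of myelin genes was set up. MBP, a main protein of myelin, had 73.8, 67.2, 73.2, 82.1 and 61.1 CPM in central libraries, against 178, 156, 149.6, 223 and 145 CPM in temporal libraries (log2 fold change -1.25, SE 0.13, edgeR adjusted p = 1.22e-05). The myelin enzyme CNP averaged 12.6 ± 3.25 CPM in central and 32.5 ± 3.94 CPM in temporal libraries (-1.37). SOX10, the transcription factor of oligodendrocytes and neural crest, was named after its values were seen and averaged 18.9 ± 8.76 CPM in central and 32.4 ± 5.74 CPM in temporal libraries (-0.82 with and -1.09 without central replicate 4, which was the highest central library for it). FOXD3, an early neural crest gene, was read 5 times in central and 121 times in temporal libraries. Without central replicate 2 the log2 fold change of FOXD3 was -6.04, against -4.46 with it. In all, 5 of the 24 gene models on the list of optic nerve head and glia were higher in central (20.8%) and 9 were lower (37.5%).

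The aryl hydrocarbon receptor is a transcription factor that binds small aromatic molecules, and its targets include its own repressor AHRR, the enzyme TIPARP that also dampens it, and CYP1B1. AHRR (ANOSAT014691) was lower in central, with 1.11, 0.854, 0.999, 2.25 and 1.22 CPM, against 76.8, 109, 119.8, 76.5 and 79.7 CPM in temporal libraries. The highest central library was at 2.245 CPM and the lowest temporal library at 76.5 CPM, a 74.4-fold difference (log2 fold change -6.22, SE 0.23, edgeR adjusted p = 1.65e-10). TIPARP had 9.13, 7.46, 8.49, 10.8 and 7.77 CPM in central and 59.3, 69.8, 54.2, 63.2 and 52.7 CPM in temporal libraries, again without overlap (log2 fold change -2.79, SE 0.11, edgeR adjusted p = 2.95e-10). Nasal libraries lay between the regions for both, at 11.1 to 23.4 CPM for AHRR and 29.03 to 39.04 CPM for TIPARP. The receptor itself, AHR, was slightly higher in central at 129.8 ± 9.21 CPM in central and 95.9 ± 3.08 CPM in temporal libraries (0.43, edgeR adjusted p = 0.000342). CYP1B1 was higher in central (above), so that known targets of this receptor moved in opposite directions. Of 9 tested gene models of the pathway 2 were higher in central and 3 lower (2 without central replicate 4).

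Secreted signals and their inhibitors differed between the regions. FST, follistatin, which binds and blocks activins, had 306, 244, 280.0, 276 and 293 CPM in central libraries, against 75.1, 88.1, 96.3, 121 and 98.2 CPM in temporal libraries (log2 fold change 1.56, SE 0.10, edgeR adjusted p = 8.04e-08). The activin subunit INHBA was lower in central at 0.334, 0.594, 0.444, 1.92 and 0.684 CPM, against 14.8, 15.9, 12.8, 11.9 and 12.4 CPM in temporal libraries, with no overlap (log2 fold change -4.20, SE 0.32, edgeR adjusted p = 3.92e-07). INHBB, the other activin subunit, averaged 23.4 ± 6.07 CPM in central and 56.3 ± 6.66 CPM in temporal libraries (-1.27), so the inhibitor was higher and both subunits were lower in central. Nasal libraries had the lowest mean of FST, 29.4 CPM, and the highest of INHBB, 68.9 CPM. On the list of BMP, TGF-beta and activin genes 6 of 40 were higher (15%) and 3 were lower (7.5%), and without central replicate 4 the counts were 6 and 6.

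FGF8, the ligand expressed in the forming high-acuity area of the chick, was read 151 times over the central libraries and 13 times over the temporal libraries. Its level was 2.23, 1.23, 0.666, 2.63 and 1.22 CPM in central libraries and 0, 0.159, 0.313, 0.0453 and 0.124 CPM in temporal ones, low in both but without overlap (log2 fold change 3.60, SE 0.80, edgeR adjusted p = 0.00692). Left without temporal replicate 3, its log2 fold change was 4.33, and without central replicate 3 it was 4.19. ETV5, a transcription factor induced by FGF signalling, averaged 106 ± 8.62 CPM in central and 74.2 ± 7.63 CPM in temporal libraries (0.52). The receptor FGFR1 was lower in central at 12.6 ± 4.695 CPM in central and 27.3 ± 1.38 CPM in temporal libraries (-1.19). Of 24 FGF genes 4 were higher and 2 lower. CCN3, a secreted matrix protein, was 14.8-fold higher in central at 25.1, 9.02, 31.1, 57.6 and 23.7 CPM, against 1.25, 0.916, 3.38, 1.49 and 2.23 CPM in temporal libraries (log2 fold change 3.88, SE 0.34, edgeR adjusted p = 1.71e-06). Central replicate 4 was the highest library (log2 fold change 3.48 without it).

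WNT genes were called in both directions, and Notch genes only as lower in central. Among 36 WNT genes 4 were higher in central, including the secreted inhibitor WIF1 (35.8 ± 7.52 CPM in central and 20.3 ± 4.53 CPM in temporal libraries). SFRP2 (75.2 ± 32.9 CPM in central and 116 ± 16.1 CPM in temporal libraries) and FZD3 were the 2 lower ones, with 6 lower when central replicate 4 was left out. Of 16 Notch genes 0 were higher in central and 4 were lower (25%). Among them were the glycosyltransferase LFNG (7.18 ± 3.34 CPM in central and 15.2 ± 1.52 CPM in temporal libraries) and the ligand DLL1 (11.7 ± 3.34 CPM in central and 17.6 ± 2.76 CPM in temporal libraries). The receptor NOTCH3 was lower too (82.2 ± 19.01 CPM in central and 113 ± 10.03 CPM in temporal libraries). Among retinal progenitor genes 1 of 21 was higher and 2 were lower, and 2 and 4 without central replicate 4. Among cell cycle genes 1 of 59 was higher and 3 were lower, and 1 and 4 of 60 without that library. On the list of axon guidance 15 of 63 gene models were lower in central (23.8%) and 3 were higher (4.76%). The repellent SEMA3F had 58.5, 63.9, 87.6, 80.8 and 104 CPM in central libraries, against 170.5, 192, 173, 166 and 184 CPM in temporal ones (log2 fold change -1.20, SE 0.10, edgeR adjusted p = 1.05e-06). SEMA3B was lower too (11.4 ± 3.94 CPM in central and 21.1 ± 2.19 CPM in temporal libraries). So was the semaphorin receptor PLXNA4 (37.8 ± 14.6 CPM in central and 63.7 ± 8.202 CPM in temporal libraries in the larger of its 2 models). Higher in central were SEMA3D (79.4 ± 20.2 CPM in central and 51.03 ± 7.59 CPM in temporal libraries) and the receptor NRP2 (91.2 ± 19.3 CPM in central and 57.4 ± 6.2 CPM in temporal libraries).

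Across these lists, the shares of gene models that were higher or lower in central can be read against those over all gene models.

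**Figure D4:**
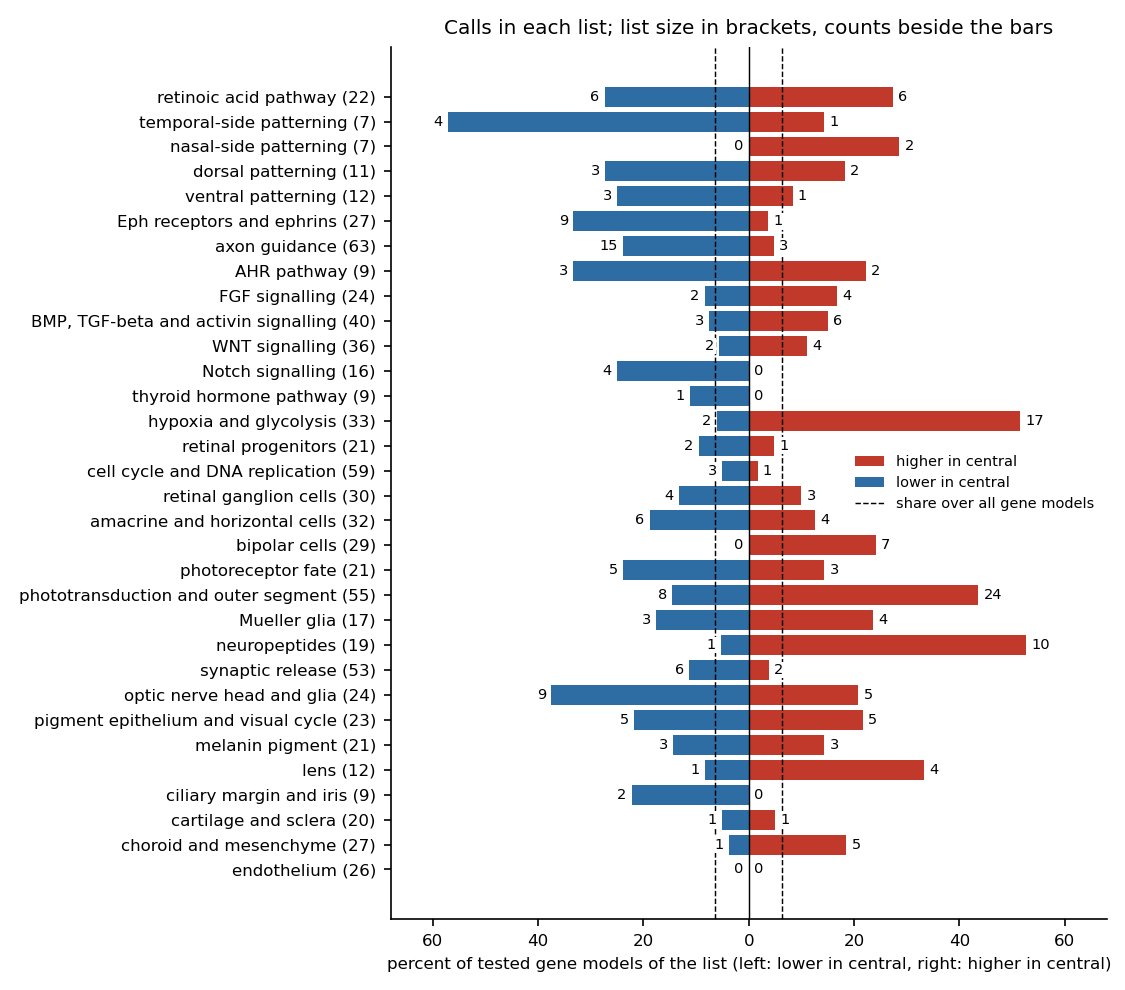
Percent of the tested gene models of each list that were higher (right, red) or lower (left, blue) in central than in temporal libraries, with the counts beside the bars, the number tested in brackets and dashed lines at the shares over all gene models, 6.34% and 6.37%. The longest bars to the right are neuropeptides (10 of 19) and hypoxia and glycolysis (17 of 33), and the longest to the left are temporal-side patterning (4 of 7) and optic nerve head and glia (9 of 24).

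Several genes of cone phototransduction were higher in central, and genes of rods went in both directions. Cone and rod genes stood on 1 joint list. The green cone opsin RH2 had 439, 544, 497, 573 and 512 CPM in central libraries, against 199, 214, 255, 253 and 229 CPM in temporal libraries. The groups did not overlap, with the lowest central library at 439 CPM and the highest temporal one at 255 CPM (log2 fold change 1.16, SE 0.08, edgeR adjusted p = 8.04e-08). The guanylate cyclase activator GUCA1B averaged 18.5 ± 5.91 CPM in central and 6.29 ± 1.48 CPM in temporal libraries (1.52). The related GUCA1C averaged 12.2 ± 2.799 CPM in central and 6.15 ± 2.05 CPM in temporal libraries (1.02). The chaperone AIPL1, which folds the cone and rod phosphodiesterase, averaged 63.5 ± 8.398 CPM in central and 35.2 ± 6.46 CPM in temporal libraries (0.87). The red opsin OPN1LW averaged 1341 ± 115 CPM in central and 984 ± 53.1 CPM in temporal libraries (0.45). Further cone genes were picked after their values were seen. The short-wavelength opsin OPN1SW averaged 108 ± 36.2 CPM in central and 62.8 ± 7.61 CPM in temporal libraries (0.76). The cone transducin GNAT2 averaged 916 ± 162 CPM in central and 604 ± 75.4 CPM in temporal libraries (0.59). The cone phosphodiesterase subunit PDE6H averaged 728 ± 83.7 CPM in central and 489.6 ± 30.1 CPM in temporal libraries (0.56). All of these were past the threshold (largest edgeR adjusted p = 0.006903, OPN1SW).

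Most of the rod genes named here were read at low levels in both regions. NR2E3, the nuclear receptor that represses cone genes in rods, had 0.167, 0.0742, 0.333, 0 and 1.32 CPM in central and 4.22, 4.54, 3.75, 2.94 and 4.55 CPM in temporal libraries (log2 fold change -3.59, SE 0.48, edgeR adjusted p = 0.000114). It was at -4.69 without central replicate 5, and it averaged 12.9 CPM in nasal libraries. The rod phosphodiesterase subunit PDE6G averaged 0.931 ± 0.624 CPM in central and 3.63 ± 0.431 CPM in temporal libraries (-2.15). The rod transducin GNAT1 averaged 2.45 ± 2.89 CPM in central and 6.18 ± 1.04 CPM in temporal libraries (-1.71, edgeR adjusted p = 0.0393, and -2.45 with adjusted p = 0.000614 without central replicate 4). The call of GNAT1 was lost when any other of the 10 libraries was left out, with log2 fold changes between -1.97 and -1.28. SAG, the arrestin named for rods, went the other way at 22.1 ± 4.299 CPM in central and 12.03 ± 3.99 CPM in temporal libraries (0.89).

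Of 55 gene models on the list of phototransduction and outer segment, 24 were higher in central (43.6%) and 8 were lower (14.5%). The summed level of the list was 19234 to 20891 CPM in central libraries and 15645 to 19617 CPM in temporal libraries. The photoreceptor matrix protein IMPG2 was lower in central at 284 ± 87.6 CPM in central and 543 ± 83.6 CPM in temporal libraries (-0.98). Fate genes were split. PRDM1, which holds precursors to the photoreceptor fate, was higher at 59.8 ± 8.09 CPM in central and 41.6 ± 6.19 CPM in temporal libraries (0.52). NEUROD1, a factor of developing photoreceptors, was lower at 52.2 ± 4.83 CPM in central and 83.6 ± 10.2 CPM in temporal libraries (-0.68). So was the photoreceptor regulator SAMD11 in the larger of its models at 21.9 ± 4.26 CPM in central and 48.3 ± 8.04 CPM in temporal libraries (-1.15). Of 3 gene models under the symbol GUCA1A, a cyclase activator, those named here moved in opposite directions. ANOSAT009808, whose identifier is next to that of GUCA1B, had 33.2, 34.5, 32.1, 35.98 and 35.5 CPM in central libraries, against 9.36, 8.84, 13.3, 12.7 and 9.26 CPM in temporal ones (log2 fold change 1.70, SE 0.16, edgeR adjusted p = 3.18e-06). ANOSAT011655 had 4.4, 7.27, 6.38, 6.93 and 5.67 CPM in central libraries, against 32.2, 41.5, 49.9, 50.9 and 47.3 CPM in temporal ones (log2 fold change -2.85, SE 0.18, edgeR adjusted p = 6.98e-08). The files give all 3 the same symbol, and whether each is a copy of GUCA1A is not given there.

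**Figure D5:**
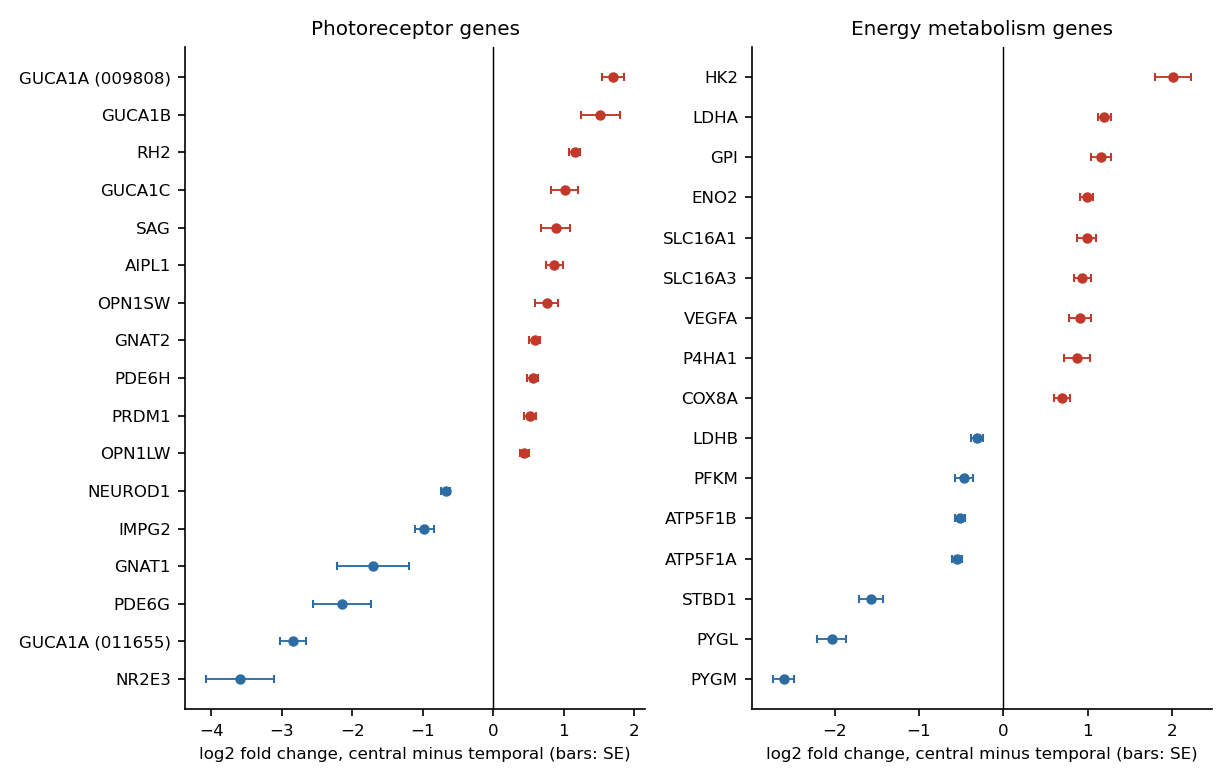
Log2 fold change of central minus temporal with its SE for 17 photoreceptor gene models and 16 genes of energy metabolism, red above and blue below 0, with the last digits of the identifier for the models of GUCA1A. Some of the genes drawn were chosen after their values were seen; RH2 (1.16), GNAT2 (0.59) and SAG (0.89) lie above 0 and PDE6G (-2.15) and NR2E3 (-3.59) below it, and HK2 (2.01) and PYGM (-2.60) mark the ends of the metabolic genes.

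Ganglion cell genes did not move together. Neurofilaments, the cytoskeleton of long axons, were lower in central. NEFM was at 377, 312, 342, 113 and 174 CPM in central libraries, against 714, 874, 911, 624 and 493 CPM in temporal libraries (log2 fold change -1.53, SE 0.18, edgeR adjusted p = 3.69e-05). The groups did not overlap, and the same direction held for NEFH at 45.1 ± 15.7 CPM in central and 95.01 ± 17.8 CPM in temporal libraries (-1.12). NEFL was at 196 ± 71.8 CPM in central and 369.9 ± 91.7 CPM in temporal libraries (-0.96). Nasal means were lower than both, at 151 CPM for NEFM and 27.1 CPM for NEFH. SNCG, gamma-synuclein of ganglion cells, averaged 81.8 ± 16.9 CPM in central and 127 ± 19.4 CPM in temporal libraries (-0.65). POU4F2, the transcription factor that specifies ganglion cells, was higher in central at 154 ± 37.9 CPM in central and 108 ± 4.13 CPM in temporal libraries (0.48, edgeR adjusted p = 0.00562). Of 30 ganglion cell gene models 3 were higher and 4 lower, and the summed level of the list was 2797 to 4035 CPM in central and 3220.4 to 4336 CPM in temporal libraries.

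Several genes of fast synaptic release were lower in central. VAMP1, a vesicle protein of this machinery, had 66.95, 72.1, 73.9, 79.8 and 52.1 CPM in central and 174, 212, 221, 213 and 165 CPM in temporal libraries, without overlap (log2 fold change -1.52, SE 0.07, edgeR adjusted p = 1.49e-09). The calcium sensor SYT2 averaged 31.3 ± 3.56 CPM in central and 74.1 ± 10.03 CPM in temporal libraries (-1.24). The complexin CPLX1 averaged 759 ± 93.6 CPM in central and 1335 ± 194 CPM in temporal libraries (-0.81). CPLX3, the complexin of ribbon synapses, was higher at 671 ± 130.3 CPM in central and 438 ± 41.8 CPM in temporal libraries (0.60). Nasal libraries were near the central level, with 60.4 CPM of VAMP1 and 24.2 CPM of SYT2. On the list of synaptic release 2 of 53 were higher and 6 lower, and 7 and 6 without central replicate 4.

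Bipolar cell genes passed the test in one direction. Of 29 gene models 7 were higher in central (24.1%) and 0 were lower. LRTM1, a leucine-rich repeat membrane protein, averaged 75.9 ± 18.6 CPM in central and 39.4 ± 6.01 CPM in temporal libraries (0.93). LRIT3, a synaptic adhesion protein that ON bipolar cells need to respond to light, averaged 173 ± 10.1 CPM in central and 124 ± 14.3 CPM in temporal libraries (0.48). The median log2 change of the list was -0.000689, so its other members were spread around 0. Of 32 amacrine and horizontal cell models 4 were higher and 6 lower (3 lower without central replicate 4). The GABA-making enzyme GAD2 was higher at 146 ± 18.8 CPM in central and 110.5 ± 9.44 CPM in temporal libraries (0.40). The calcium-binding protein CALB2 was lower at 238 ± 21.6 CPM in central and 323 ± 31.6 CPM in temporal libraries (-0.44).

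Neuropeptides, which in the retina are made mainly by amacrine cells, were mostly higher in central. Of 19 gene models 10 were higher (52.6%) and 1 was lower, with a median log2 change of 0.51. Somatostatin, SST, had 89.01, 129, 88.5, 72.7 and 54.6 CPM in central libraries, against 18.98, 29.4, 39.3, 22.6 and 19.7 CPM in temporal libraries (log2 fold change 1.74, SE 0.18, edgeR adjusted p = 8.80e-06), and 1.103 CPM on average in nasal ones. TAC1, the precursor of substance P, had 274, 360.2, 225, 309 and 324 CPM in central and 100.5, 119, 113, 113 and 131 CPM in temporal libraries (log2 fold change 1.36, SE 0.08, edgeR adjusted p = 3.35e-08). Neither gene overlapped between the regions, nor did cholecystokinin, CCK (49.6 ± 3.38 CPM in central and 21.7 ± 2.39 CPM in temporal libraries, 1.20). The same held for neurotensin, NTS (495 ± 69.9 CPM in central and 291 ± 35.5 CPM in temporal libraries, 0.77, named after its values were seen), and for the peptide gene ADCYAP1 (13.4 ± 2.93 CPM in central and 6.88 ± 0.527 CPM in temporal libraries, 0.95). It also held for the smaller of the 2 models of CARTPT (5.01 ± 1.203 CPM in central and 1.63 ± 0.949 CPM in temporal libraries, 1.74). The larger model of CARTPT (ANOSAT003610) was higher too, at 14.8 ± 3.83 CPM in central and 7.801 ± 3.74 CPM in temporal libraries (1.02). For that model libraries overlapped, and its call was lost without the replicate block (edgeR adjusted p = 0.130). The exception was NPVF, an RFamide peptide, with 9 reads in central and 318 in temporal libraries (log2 fold change -4.96, SE 0.78, edgeR adjusted p = 0.000469), and a log2 fold change of -6.145 without central replicate 3.

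Of 33 gene models on the list of hypoxia and glycolysis, 17 were higher in central (51.5%) and 2 were lower, with a median log2 change of 0.59. HK2, the hexokinase that opens the pathway, had 101, 104, 77.05, 62.3 and 48.4 CPM in central libraries, against 16.02, 18.4, 18.9, 22.5 and 17.4 CPM in temporal libraries (log2 fold change 2.01, SE 0.21, edgeR adjusted p = 9.80e-06), and nasal libraries averaged 2.93 CPM. LDHA, which makes lactate from pyruvate, had 1880.0, 2549, 1781, 2433 and 2079 CPM in central libraries, against 838, 889, 809, 1171 and 969 CPM in temporal libraries (log2 fold change 1.20, SE 0.08, edgeR adjusted p = 6.98e-08). No libraries of the regions overlapped for either, and the same was true of the isomerase GPI (2033 ± 268 CPM in central and 904 ± 51.4 CPM in temporal libraries, 1.16). It was true too of the enolase ENO2 (2586 ± 209.9 CPM in central and 1307 ± 158 CPM in temporal libraries, 0.99). VEGFA, a growth factor of vessels that low oxygen induces, averaged 264 ± 30.3 CPM in central and 143 ± 38.1 CPM in temporal libraries (0.91). P4HA1, a collagen hydroxylase induced in the same way, averaged 29.2 ± 8.48 CPM in central and 15.7 ± 1.16 CPM in temporal libraries (0.87 with and 0.69 without central replicate 4, its highest library). The 2 lower ones on the list were LDHB (249 ± 20.9 CPM in central and 309 ± 30.04 CPM in temporal libraries, -0.31), the lactate dehydrogenase subunit that favours pyruvate, and the muscle-type phosphofructokinase PFKM (25.7 ± 8.35 CPM in central and 34.4 ± 5.07 CPM in temporal libraries, -0.47). Neither was called without the replicate block, where 17 models of the list were higher and 0 lower. Libraries of the regions overlapped for PFKM (edgeR adjusted p = 0.291 without the block). Lactate transporters, chosen after their values were seen, followed LDHA, with SLC16A1 at 506 ± 107 CPM in central and 253 ± 32.7 CPM in temporal libraries (0.98) and SLC16A3 at 403 ± 44.3 CPM in central and 213 ± 37.9 CPM in temporal libraries (0.94).

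Glycogen phosphorylases, which release sugar from glycogen, were lower in central in the 2 forms named here. PYGM, the muscle form of glycogen phosphorylase, was lower in central at 10.6, 10.8, 17.6, 9.299 and 7.91 CPM, against 85.4, 67.4, 84.2, 55.6 and 47.4 CPM in temporal libraries, without overlap (log2 fold change -2.60, SE 0.12, edgeR adjusted p = 1.99e-09). The liver form PYGL, chosen after its values were seen, averaged 23.6 ± 3.93 CPM in central and 97.1 ± 5.75 CPM in temporal libraries (-2.04), and nasal libraries had 43.2 CPM of PYGM and 12.9 CPM of PYGL. On a list of glycogen metabolism put together after values were seen, 6 of 31 gene models were lower (19.4%), 1 was higher and 24 did not pass, with a median log2 change of -0.10 (6 lower and 2 higher without central replicate 4).

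Transthyretin, TTR (ANOSAT011075), which carries thyroid hormone and binds RBP4, was lower in central. Its level was 73.1, 78.97, 73.4, 59.4 and 112 CPM in central libraries, against 395, 289.8, 328, 279.6 and 259.7 CPM in temporal libraries (log2 fold change -1.98, SE 0.13, edgeR adjusted p = 8.14e-08). It was the 1 of 9 tested thyroid hormone genes that passed. DIO2, which activates the hormone, averaged 7.83 ± 3.27 CPM in central and 4.18 ± 0.672 CPM in temporal libraries (edgeR adjusted p = 0.123). The receptor THRB, a driver of cone opsin choice, averaged 378 ± 37.8 CPM in central and 320.4 ± 26.2 CPM in temporal libraries (edgeR adjusted p = 0.0701, log2 fold change 0.24, and past the threshold at 0.30 without central replicate 2).

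Genes of the visual cycle and of Müller glia were divided. RLBP1, the retinal-binding protein of both cell types, averaged 506 ± 132 CPM in central and 268 ± 43.3 CPM in temporal libraries (0.91). LRAT, which esterifies retinol, averaged 35.95 ± 20.4 CPM in central and 11.5 ± 3.75 CPM in temporal libraries (1.58 with and 1.44 without central replicate 4, its highest library). RPE65 averaged 412 ± 69 CPM in central and 305 ± 62.8 CPM in temporal libraries (0.44). BEST1, a chloride channel of pigment epithelium, was lower at 12.4 ± 1.18 CPM in central and 19.8 ± 2.72 CPM in temporal libraries (-0.67). The list of pigment epithelium and visual cycle had 5 of 23 higher and 5 lower. On the list of 21 melanin genes 3 were higher and 3 were lower, but 4 and 9 without central replicate 4, where the pigment sum was highest. Among the higher ones MLPH, which ties pigment granules to the motor that moves them, averaged 137 ± 9.61 CPM in central and 72.96 ± 16.2 CPM in temporal libraries (0.94). PMEL, DCT and TYRP1 ran the other way. They did not pass with central replicate 4 (-0.43, -0.37 and -0.28) and were lower in central without it (-0.66, -0.53 and -0.42). GPR143 was lower in both fits (-0.34 and -0.36). The Müller glia transporter of glutamate, SLC1A3, was lower at 1054 ± 259 CPM in central and 1869 ± 175 CPM in temporal libraries (-0.85). Also lower were the potassium channel KCNJ10 (16.8 ± 3.34 CPM in central and 29.2 ± 4.14 CPM in temporal libraries, -0.81) and the thyroid hormone binding protein CRYM (16.6 ± 5.08 CPM in central and 45.05 ± 6.14 CPM in temporal libraries, -1.46). Carbonic anhydrase CA2, an enzyme of glia and pigment epithelium named after its values were seen for its high level, averaged 5745 ± 1181 CPM in central and 2083 ± 80.9 CPM in temporal libraries (1.45).

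Some markers of tissues around the retina also differed between the regions. The choroid and mesenchyme list had 5 of 27 gene models higher in central and 1 lower, but 2 and 2 without central replicate 4. COL3A1, a collagen of connective tissue, had 112, 124, 126, 497 and 129 CPM in central libraries and 61.2, 50.9, 86.8, 164 and 74.4 CPM in temporal ones, and its log2 fold change of 1.03 (edgeR adjusted p = 0.0143) became 0.74 (adjusted p = 0.146) without that library. ALX4, a mesenchymal transcription factor, was at 1.30 (edgeR adjusted p = 0.0287) with and 0.80 (adjusted p = 0.0923) without it, and its call was also lost without central replicate 1 or 3 or temporal replicate 1, 2, 3 or 4 (1.225 to 1.37). The matrix proteoglycan DCN stayed past the threshold with and without central replicate 4, at 1.54 and 1.10 (edgeR adjusted p = 0.003899 and 0.023). Its call was lost in 1 of 23 alternative fits. TBX18, a transcription factor of mesenchyme around the eye and of mural cells, was higher in central at 7.58, 6.79, 11.3, 21.8 and 10.8 CPM, against 0.659, 0.358, 2.44, 2.44 and 1.695 CPM in temporal libraries (log2 fold change 3.05, SE 0.32, edgeR adjusted p = 1.04e-05), and changed little without that library (2.93). The part of mesenchyme in other differences was not tested.

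On the list of lens genes 4 of 12 were higher in central and 1 was lower, and the summed level of the list was 241 to 350.0 CPM in central libraries and 79.2 to 135 CPM in temporal libraries. The sum was carried by genes that are also expressed outside the lens. ASL, argininosuccinate lyase, whose gene gave rise to delta-crystallin in birds and reptiles, had 68.5, 92.8, 70.3, 64.97 and 153 CPM in central libraries and 7.51, 8.56, 13.3, 5.21 and 37.1 CPM in temporal ones (log2 fold change 2.86, SE 0.28, edgeR adjusted p = 4.79e-06), and 0.762 CPM on average in nasal ones. CRYAB, a small heat shock protein, averaged 149 ± 17.2 CPM in central and 52.1 ± 16.7 CPM in temporal libraries in the model ANOSAT017970 (1.56). The defining lens crystallins CRYAA and CRYBB1 were at most 4.68 CPM in any central library and 5.85 CPM in any temporal library, and neither was called. The crystallin CRYBA2 was the 1 lower member, at 0.0839 ± 0.0870 CPM in central and 1.94 ± 0.68 CPM in temporal libraries (log2 fold change -4.57), named after its values were seen. None of 26 endothelial or 8 immune gene models was called. Lists of cartilage and sclera (1 of 20 higher, 1 lower), muscle (0 of 15 higher, 1 lower) and blood (0 of 10 higher, 1 lower) had at most 1 call in each direction. Without central replicate 4, 2 of 20 were higher on the list of cartilage and sclera and 2 of 16 were lower on that of muscle.

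Among the remaining genes with the largest differences, PDZRN3, a ubiquitin ligase, had the smallest p-value of all gene models. It had 261, 281, 288, 343 and 253 CPM in central libraries, against 42.6, 43.1, 45.6, 43.3 and 46.95 CPM in temporal libraries, and 36.4 to 44.02 CPM in nasal ones (log2 fold change 2.68, SE 0.08, edgeR adjusted p = 2.88e-11). Also higher in central was the bile acid receptor NR1H4 (8.14 ± 6.04 CPM in central and 0.736 ± 0.469 CPM in temporal libraries, 3.41, and 2.77 without central replicate 4). The potassium channel KCNJ15 averaged 14.7 ± 5.42 CPM in central and 1.703 ± 0.2998 CPM in temporal libraries (3.07). The mineralisation inhibitor MGP averaged 13.2 ± 4.33 CPM in central and 2.33 ± 1.36 CPM in temporal libraries in the model ANOSAT012150 (2.63), while its other model did not pass (8.08 ± 5.37 CPM in central and 8.501 ± 5.33 CPM in temporal libraries, -0.14, edgeR adjusted p = 0.784). Higher too was a glutathione transferase under the symbol GSTM4 (91.4 ± 24.6 CPM in central and 15.2 ± 2.41 CPM in temporal libraries, 2.57, in the model ANOSAT010001).

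Lower in central were several channels and kinases. TRPM6, a magnesium channel, had 0.891, 0.2598, 1.33, 2.31 and 0.391 CPM in central libraries, against 34.7, 31.6, 37.6, 38.98 and 18.6 CPM in temporal libraries (log2 fold change -5.18, SE 0.37, edgeR adjusted p = 2.26e-07). Its highest central library was at 2.31 CPM, and it was also low in nasal ones, with a mean of 0.927 CPM. The kinases PRKCQ (2.04 ± 1.98 CPM in central and 15.1 ± 2.97 CPM in temporal libraries, -3.14) and PRKD1 (5.26 ± 1.68 CPM in central and 35.5 ± 6.602 CPM in temporal libraries, -2.79) shared this pattern, with nasal means of 3.998 and 7.84 CPM. The glutamate receptor subunit GRIK2, in the model ANOSAT021633 (6.12 ± 1.95 CPM in central and 31.8 ± 8.02 CPM in temporal libraries, -2.40), was lower as well. The larger models of GRIK2 did not pass (0.27 and 0.27, edgeR adjusted p = 0.0535 and 0.122), although the first did without central replicate 4 or temporal replicate 5 (0.28 and 0.34). The WNT regulator DACT2 was also lower (13.8 ± 2.17 CPM in central and 61.03 ± 6.17 CPM in temporal libraries, -2.16). Nasal means were 50.8 CPM for this model of GRIK2 and 76.4 CPM for DACT2, above the temporal means.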

How the data were processed

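RNA was isolated with the mirVana kit from posterior globe quadrants, and TruSeq Stranded mRNA libraries were sequenced on an Illumina NextSeq instrument. The deposited values are whole-number counts of reads per gene model, made by the authors with HISAT2 2.2.1 and featureCounts per the submitters' processing notes. For build and strand setting: not given in the sources used here. Reads of overlapping or antisense genes may not be separated. Counts were fitted with edgeR 4.0.16 (R 4.3.3, limma 3.58.1), with TMM scaling, filterByExpr by region, and region plus replicate number as terms over all 15 libraries, which share 1 estimate of the spread. The contrast was central minus temporal, with quasi-likelihood p-values adjusted by Benjamini-Hochberg over 15910 of 20235 gene models at 0.05. Tables and figures were made with Python 3.11.15, pandas 2.3.3 and matplotlib 3.10.9.

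The replicate number was used as a block because deviations from the region means correlated above 0.1 in 15 of 15 pairs with the same number (0.193 to 0.524) and in 3 of 60 pairs with different numbers. No 2 libraries of a region agreed within sampling noise (chi-square per degree of freedom 10.3 to 66.9 over 30 pairs). On simulated counts for this comparison, 71.5% of 200 changed genes among 15767 were recovered (54.1%, 68.6% and 89.9% at 1.5-, 2- and 4-fold) with 9 false calls. The simulated replicate effects were the same in all regions, as the fit assumes, and no simulated library was made to stand apart. These shares therefore check the fit and do not give its error rate in the real libraries.

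Named gene models were the 12 largest rises and 12 largest falls among those whose libraries did not overlap and with a mean of at least 5 CPM, the 6 smallest p-values in each direction, up to 6 called members of each of 38 lists in each direction, the members of the patterning, retinoic acid and thyroid lists, and the 4 highest genes of each marker list. Some genes that this rule takes are not reported here. Exceptions are said to have been chosen after their values were seen, as were the further models of EDNRB, MGP and GRIK2, and 4 lists were added later. Members and lists were chosen with earlier results of these data known. Symbols matched RefSeq names for 15874 gene models, used for names and neighbours only. Where a symbol is carried by more than 1 model, the models used were COX8A (ANOSAT000291), ALX4 (ANOSAT000697), INHBB (ANOSAT001272), MLPH (ANOSAT001744), BMP2 (ANOSAT001912), DACT2 (ANOSAT002560), VEGFA (ANOSAT002723), VAMP1 (ANOSAT004069), EPHB2 (ANOSAT004086), OPN1LW (ANOSAT004388), RBP4 (ANOSAT004707), SEMA3F (ANOSAT005720), SST (ANOSAT006953), GUCA1C (ANOSAT008743), IMPG2 (ANOSAT008767), SYT2 (ANOSAT009751), GUCA1B (ANOSAT009809), PLXNA4 (ANOSAT011740), SEMA3D (ANOSAT012652), SFRP2 (ANOSAT013021), HK2 (ANOSAT017843), CALB2 (ANOSAT018124), CPLX3 (ANOSAT018870), CRABP2 (ANOSAT019022), STRA6 (ANOSAT019077), CARTPT (ANOSAT020635), EPHA8 (ANOSAT021196), SAMD11 (ANOSAT021572), RDH10 (ANOSAT011197), EPHA6 (ANOSAT008713), EPHA6 (ANOSAT008714), EDNRB (ANOSAT019402), MGP (ANOSAT012151), GRIK2 (ANOSAT002247) and GRIK2 (ANOSAT002248). Alternatives were no block, DESeq2 1.42.0, limma-voom, RLE and upper-quartile scaling, other filters on low counts, the 2 regions alone, and each library or replicate number left out.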

Additional observations from a re-analysis of the deposited data

Results flagged for a closer look

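Each measure was looked at within the 5 libraries of a region, and a library was singled out where its gap to the nearest other library exceeded 0.71 of the range of the region, Dixon's limit for 5 samples, which chance passes in about 1 of 20 groups. Of 292 such tests of named gene models, 35 passed, and 18 of these were in central replicate 4. Of the library measures and summed marker levels 4 passed, each in central replicate 4: it listed 14994 gene models with a read, and its summed levels were 191.2 CPM for the ciliary margin and iris list, 3636.5 CPM for choroid and mesenchyme and 420.3 CPM for endothelium, where the other central libraries were at 138.1 to 153 CPM, 477.8 to 1282.6 CPM and 259.2 to 278.9 CPM.

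Central replicate 4 was the highest central library for ALX4 (23.6 CPM, others at most 4.94), COL3A1 (497 CPM, others at most 128.8) and DCN (276.5 CPM, others at most 79.39), genes of connective tissue. It was also highest for SOX10 at 34.5 CPM, LRAT at 71.83 CPM, NR1H4 at 18.92 CPM, NOTCH3 at 115.3 CPM, P4HA1 at 43.61 CPM and PRKCQ at 5.515 CPM. Among genes near 0 in central it was highest for AHRR (2.245 CPM), INHBA (1.924 CPM) and EPHA8 (2.052 CPM in the model ANOSAT021196), and it was highest for the second model of EPHA3 at 15.14 CPM and the larger model of EDNRB at 37.97 CPM. It was the lowest central library for EPHA5 at 49.13 CPM, PLXNA4 at 12.51 CPM, GUCA1B at 8.273 CPM and LFNG at 1.411 CPM, where the other central libraries had at least 7.631 CPM of LFNG. The part of the surrounding tissue in these values was not tested.

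The other 17 were spread over 9 libraries. In central libraries, CPLX1 was lowest in replicate 2 at 596 CPM, AIPL1 was highest in replicate 1 at 77.92 CPM, NPVF in replicate 3 at 0.3331 CPM and NR2E3 in replicate 5 at 1.319 CPM. In temporal replicate 5, PAX2 was highest at 0.8266 CPM and ASL at 37.11 CPM, while SLC16A1 was lowest at 196.3 CPM, GFAP at 302.4 CPM and STRA6 at 29.39 CPM. Temporal replicate 3 was highest for POU4F2 at 114.9 CPM and KCNJ10 at 36.44 CPM and lowest for STBD1 at 33.76 CPM. Temporal replicate 4 was highest for ENO2 at 1583.1 CPM, GAD2 at 126.8 CPM and the MGP model ANOSAT012151 at 17.88 CPM, temporal replicate 2 for ZIC2 at 6.61 CPM, and temporal replicate 1 was lowest for NOTCH3 at 95.58 CPM.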

How the results depend on the processing

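Counts of gene models depended on the block and the test more than on the scaling. With no replicate block, 1078 gene models differed, 562 higher and 516 lower in central, and 1077 of them were also called with the pairing kept. With limma-voom and quality weights the counts were 3544, 1789 and 1755. Leaving out 1 library gave 1357 to 2272 gene models, 686 to 1132 higher and 671 to 1140 lower, and leaving out a replicate number in both regions gave 1230 to 2075, 622 to 1037 and 561 to 1038. The count past 2-fold ranged from 294 to 447 and from 277 to 445 in these fits. DESeq2 called 2528, and RLE scaling 2008, upper-quartile scaling 2034, no filter on low counts 1908, a minimum count of 50 2012 and the 10 libraries alone 2049. Of 3351 combinations of the 146 named gene models with the alternatives, 3253 kept the call, 78 lost it, 17 gained it and 3 changed direction, with 119 gene models keeping it throughout. The block removed from the fit lost 16 of these calls, and the cause was not tested. Depth limits rare transcripts, since 3 reads correspond to 0.111 to 0.198 CPM in a library. The changes of direction were all in the uncalled MGP model ANOSAT012151, which lay between -0.28 and 0.0402 with 1 library or replicate number left out and was above 0 without central replicate 2, temporal replicate 4 or replicate 2.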

Other observations

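Some groups outside the lists of the report were looked at after their values had been seen, and they are given as descriptions. Of 82 tested gene models of the respiratory chain and ATP synthase, 23 were lower in central (28.0%) and 1 was higher, with a median log2 change of -0.17. The ATP synthase subunits ATP5F1A and ATP5F1B averaged 409 ± 55.6 CPM in central and 597 ± 65.7 CPM in temporal libraries (-0.55) and 506 ± 58.98 CPM in central and 722 ± 53.97 CPM in temporal libraries (-0.52), and the 1 higher member was COX8A, a subunit of cytochrome oxidase, at 57.7 ± 7.82 CPM in central and 35.5 ± 3.31 CPM in temporal libraries (0.70). Over all gene models 6.37% were lower and 6.34% were higher. Without central replicate 4 the counts on this list were 25 lower and 1 higher, and without the replicate block 9 lower and 1 higher. All 5 central libraries lay below all 5 temporal libraries for 6 of the 82 models and above them for 1. Of 91 cytoplasmic ribosomal protein models 12 were higher in central (13.2%) and 0 lower, and 6 and 0 without central replicate 4. Without the replicate block 2 were higher and 0 lower, and libraries of the 2 regions overlapped for every model on this list.

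On the glycogen list, beside PYGM and PYGL, the glycogen-binding protein STBD1 averaged 14.8 ± 4.898 CPM in central and 43.05 ± 5.396 CPM in temporal libraries (-1.57). ASNS, which makes asparagine and is a target of the stress factor ATF4, had 99.1, 92.3, 59.6, 85.7 and 49.2 CPM in central libraries, against 14.5, 15.2, 13.9, 15.5 and 14.6 CPM in temporal libraries (log2 fold change 2.36, SE 0.16, edgeR adjusted p = 8.04e-08), and 13.8 CPM on average in nasal ones. On its whole list, ASNS included, 4 of 27 gene models were higher (14.8%) and 3 were lower (11.1%), with a median log2 change of -0.02. Over all gene models the shares were 6.34% and 6.37%.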
